A study of Homo sapiens with 12 samples.

Results

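The comparison of all 3 drugs given together with vehicle was taken from 6 of the 12 arrays of the series, the 3 arrays titled for dabrafenib, trametinib and entinostat and the 3 titled for DMSO. Every gene with a named row was tested, which gave 14599 genes out of a table of 29592 rows. All arrays came from Hs695T, a human melanoma cell line grown as a culture, with total RNA taken 24 h after drug was added. Vehicle cells had DMSO alone, and combination cells had 100 nM of the BRAF inhibitor dabrafenib, 10 nM of the MEK inhibitor trametinib and 1 µM of entinostat, which blocks the class I histone deacetylases. The other 6 arrays, 3 with the kinase inhibitor pair alone (MAPKi) and 3 with entinostat alone (HDACi), at the same doses and time, entered the estimate of spread and the last comparison only. The array titles speak of biological replicates while the series description speaks of technical ones, so p-values here cover only the spread between these arrays. A single cell line was used, and in a bulk culture fewer cells of one kind and less RNA per cell cannot be told apart.

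In BRAF-mutant melanoma, signals pass from BRAF through MEK to the kinase ERK, which drives growth genes and also its own feedback inhibitors. ERK output allows cells to leave the first gap phase of the cell cycle, when E2F transcription factors switch on the genes needed to copy DNA. Histone deacetylases remove acetyl groups from histones and are part of complexes that keep genes silent, among them neuronal genes in cells that are not neurons.

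The values were array intensities on a linear scale, and changes are differences of their log2, combination minus vehicle. Each change is given as deposited and, as a second value, after quantile normalization, which forces all arrays to the same spread of values. The choice matters because the combination arrays were dimmer: their medians were 34.78, 39.88 and 33.28, against 57.59, 50.64 and 51.59 in vehicle, so the groups did not overlap. How the authors scaled the arrays against each other was not stated. Over all genes the median change was -0.72 as deposited and -0.04 after quantile normalization. A gene is said to have fallen or risen only where it passed an adjusted p of 0.05 in limma with the same sign on both scales.

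On these terms 3730 genes fell, which is 25.5% of those tested, and 582 rose (3.99%). The counts of each gene list below are to be read beside these shares, which also differed with brightness. Another 1578 genes (10.8%) passed as lower on the deposited scale and as higher after quantile normalization, and 5589 (38.3%) passed on the deposited scale only. Among the genes with a change over 2-fold on both scales, 511 were lower and 124 were higher. The remaining calls were on the quantile scale only (6.3%). The deposited scale called 78.6% of genes, with 10840 lower (74.3%) and 639 higher (4.38%), while quantile normalization called 46.6%, with 3737 lower (25.6%) and 3073 higher (21%). Regardless of the test, the 3 arrays of one group lay apart from the 3 of the other for 76.8% of genes as deposited and 53.9% after quantile normalization. The higher genes thus made up 5.57% of the calls as deposited, 34.2% after each array's median was subtracted, 49.6% after cyclic loess and 45.1% after quantile normalization.

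**Figure D1:**
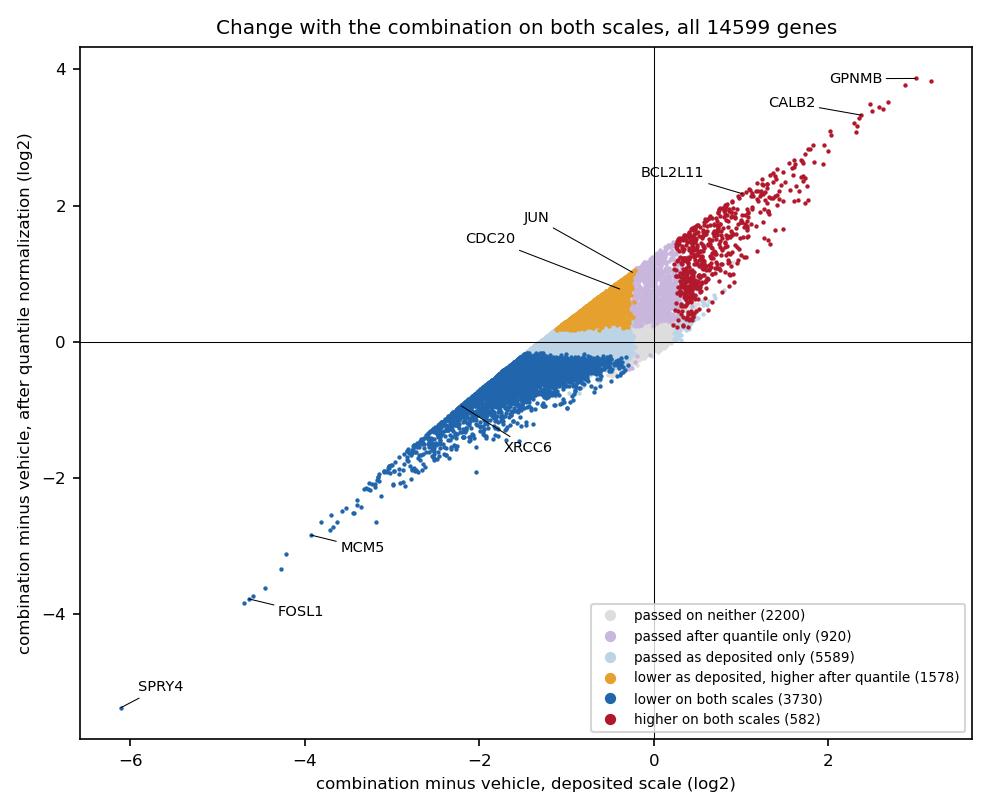
Change of each of 14599 genes with the combination, on the deposited scale (horizontal axis, log2) and after quantile normalization (vertical axis, log2), coloured by the scales on which it passed. SPRY4 lies lowest on both axes at -6.10 and -5.38, and the 1578 genes in orange, CDC20 and JUN among them, lie left of 0 and above 0.

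The general shift grew with brightness. With genes placed in 10 bins by mean intensity, the dimmest bin had a median deposited change of -0.04, the ninth of -1.32 and the brightest of -1.19, while the quantile medians stayed between -0.10 and -0.01. The share of genes that fell on both scales was 4.04% among the dimmest and reached 40.7% in the eighth bin. Protein-coding genes, which were the brightest class, had 28.9% lower and 4.15% higher on both scales, against 12% and 3.53% of long non-coding RNA genes.

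**Figure D2:**
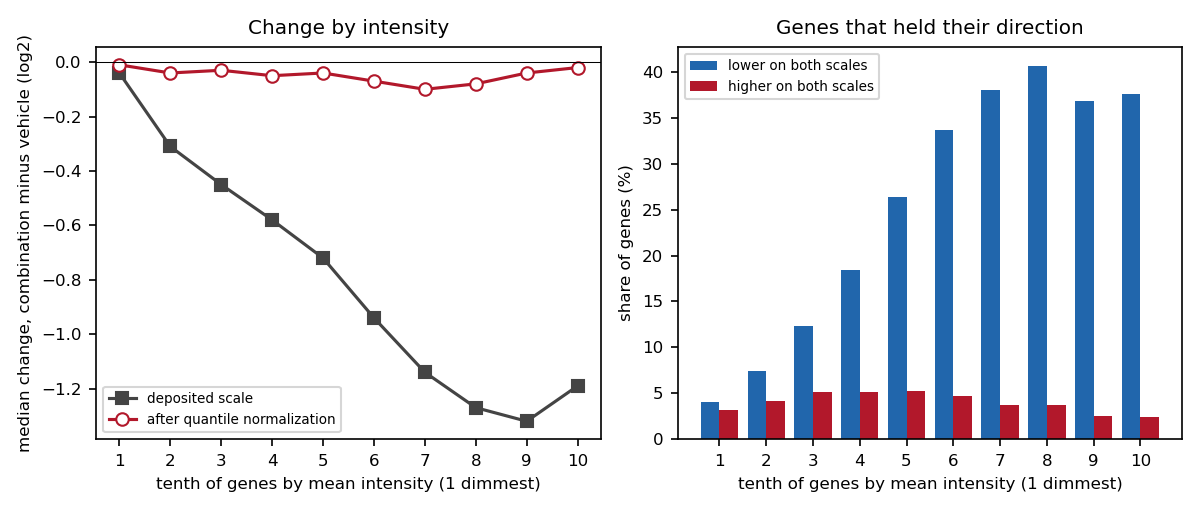
Left, median log2 change (combination minus vehicle) in 10 bins of genes from dimmest to brightest, as deposited (squares) and after quantile normalization (circles). Right, share of genes in each bin that were lower (blue) or higher (red) on both scales, with 40.7% lower in the eighth bin and no bin above 5.21% higher.

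The melanocyte lineage markers of the culture were uneven. S100B and SOX10 stood at the 99.7 and 96.1 percentiles of all genes in vehicle, MITF and the pigment gene PMEL at 44.6 and 44.2, EDNRB at 40.8, and the pigment genes MLANA, TYR and TYRP1 at 15.3, 10.6 and 7.98. These percentiles also carry how strongly each probe responds. Of the 9 markers 8 were measured, and their summed intensity was 3843 to 4276 in vehicle and 1549 to 1592 with the combination. Markers of other cells were mostly dim: 5 of 6 for keratinocytes summed to 121 to 142 in vehicle and 94 to 125 with the combination, and 2 of 7 for fibroblasts summed to 13 to 14 in both. The 2 endothelial markers measured of 5 summed to 402 to 462 and 126 to 150, nearly all from KDR, and the 5 immune markers measured of 9 summed to 551 to 597 and 391 to 430, mostly from CD68. The part of other cell types in the results was not tested.

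ERK feedback inhibitors fell furthest. Of 7 measured, 5 fell on both scales and the other 2 passed as lower on the deposited scale only, with a median change of -3.57 (quantile -2.48). SPRY4, an inhibitor of receptor tyrosine kinase signalling, read 2459, 2098 and 2363 in the vehicle arrays and 32.9, 33.1 and 34.4 with the combination. That is 68.8-fold lower (-6.10 ± 0.12 SE, adjusted p = 1.4e-14, quantile -5.38), the largest fall of all genes. The groups did not overlap, which as deposited was so for 76.8% of all genes. Its relative SPRY2 went from 757, 683 and 722 to 29.3, 29.3 and 31.4, which is 24.0-fold lower. Another relative, SPRY3, was placed in the growth factor list and named after its value was seen. It passed with opposite signs on the 2 scales (-0.39, quantile 0.79). DUSP6, a phosphatase of ERK, went from 494, 487 and 478 to 25.2, 27.2 and 15.9, so the third combination array lay below the other 2 and all 3 lay far below vehicle (-4.45 ± 0.17, adjusted p = 7.4e-12, quantile -3.62). DUSP4, a nuclear phosphatase of the same family, fell 11.9-fold (-3.57 ± 0.12, quantile -2.48). DUSP2 (-0.79, quantile 0.21) and DUSP5 (-0.77, quantile -0.17) were the 2 that passed on the deposited scale only, though DUSP2 passed as higher after quantile normalization without the third combination array (0.31).

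Transcription factors and growth genes that depend on ERK fell with them, 12 of 15 on both scales, and their median was -2.51 (quantile -1.35). ETV5, an ETS transcription factor, read 711, 526 and 708 in vehicle and 24.7, 26.4 and 23.6 with the combination, 25.8-fold lower (-4.69 ± 0.14, adjusted p = 1.4e-12, quantile -3.84). The ETS factors ETV4 (19.3-fold) and ETV1 (10.9-fold) were lower as well. FOSL1, a subunit of the AP-1 transcription factor, read 738, 690 and 826 against 31.7, 24.3 and 35.3, 24.9-fold lower (-4.64 ± 0.15, adjusted p = 1.8e-12, quantile -3.78). None of these genes overlapped between groups as deposited, nor did 76.8% of all genes. Cyclin D1, encoded by CCND1, fell 5.97-fold (quantile -1.35), the ephrin receptor gene EPHA2 (-2.51, quantile -1.51) and the cytokine gene LIF (-1.74, quantile -1.12). MYC fell less, from 179, 156 and 197 to 62.2, 74.0 and 59.6 (-1.44 ± 0.13, adjusted p = 2.5e-08, quantile -0.41). NPPC, which encodes C-type natriuretic peptide and was in no list, was among the 12 largest falls at 18.6-fold, from 3815, 3564 and 4069 to 198, 212 and 207.

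The other AP-1 and MAF factors did not follow FOSL1. Of 11 measured, 1 rose, 1 fell and 3 passed with opposite signs on the 2 scales, with a median of -0.24 as deposited and 0.95 after quantile normalization (0.32 after medians were subtracted, 0.98 after cyclic loess). JUN read 259, 250 and 263 in vehicle and 205, 224 and 223 with the combination, a change of -0.24 ± 0.10 (adjusted p = 0.041) that became 1.02 after quantile normalization (adjusted p = 2.9e-06). The deposited call for JUN was lost when the first or the third vehicle array, or the first or the third combination array, was left out (-0.20 to -0.26). FOSL2, another AP-1 subunit, rose from 153, 133 and 174 to 184, 213 and 191 (0.36 ± 0.13, adjusted p = 0.018, quantile 1.54), but its deposited call was lost without the second vehicle array (0.26) or the second combination array (0.30).

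Genes that place and fire replication origins fell nearly as a group. Of 18 measured, 15 fell on both scales and 2 passed with opposite signs, with a median of -2.65 (quantile -1.53). MCM5, a subunit of the replicative helicase, read 1174, 999 and 1154 in vehicle and 75.7, 76.2 and 66.9 with the combination, 15.2-fold lower (-3.92 ± 0.12, adjusted p = 1.6e-12, quantile -2.84). MCM6, its partner subunit, fell 9.81-fold, and MCM10, which helps the helicase to fire, fell 12.7-fold. TOPBP1, which loads origin firing factors, went from 788, 685 and 782 to 84.8, 86.3 and 93.8 (8.50-fold lower, quantile -1.91). The 2 that passed with opposite signs were the kinase that fires origins and its activator, CDC7 (-0.86, quantile 0.42) and DBF4 (-0.99, quantile 0.30). The quantile call of DBF4 was lost without the third vehicle array (0.22) or the first combination array (0.25). Of 28 replication fork genes listed only 6 were measured, and all 6 fell (median -2.35, quantile -1.35). Among them were the flap endonuclease gene FEN1 (5.82-fold), the clamp loader gene DSCC1 (-2.52, quantile -1.65) and the checkpoint mediator gene CLSPN (5.04-fold). DTL, which directs the licensing factor CDT1 to degradation, was among the 12 largest falls, from 1310, 1220 and 1360 to 86.5, 108 and 105 (13.0-fold, quantile -2.55).

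The cyclins and E2F factors of the first gap phase fell in 12 of 13 cases on both scales (median -2.18, quantile -1.22). E2F1 went from 304, 259 and 369 to 41.9, 56.0 and 45.1 (6.5-fold lower, quantile -1.70), and E2F3 from 224, 216 and 230 to 27.2, 31.4 and 31.1 (7.48-fold, quantile -2.08). CCNE1, the gene of cyclin E1, fell 7.12-fold and CDC25A, a phosphatase that activates CDK2, was lower (-2.40, quantile -1.65). The exception was CCND2, encoding cyclin D2, which was named after its value was seen. It rose from 36.97, 35.77 and 36.59 to 56.29, 71.20 and 56.81 (0.74, adjusted p = 0.000489, quantile 1.43), though not on the deposited scale when the mean of its probe sets was used (0.28). Nucleotide synthesis genes, which supply DNA building blocks, fell in 19 of 20 cases (median -1.92, quantile -0.83), for example RRM1 of ribonucleotide reductase (5.39-fold), thymidylate synthase TYMS (5.12-fold) and the purine synthesis gene PFAS (5.21-fold).

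Mitotic genes behaved otherwise. Of 26 mitotic kinases, cyclins and checkpoint genes, all passed as lower on the deposited scale, but only 8 fell on both scales and 10 passed as higher after quantile normalization, with medians of -1.13 and 0.04 (-0.56 after medians were subtracted, 0.09 after cyclic loess). Those that fell included PLK4, the kinase of centriole duplication, from 151, 144 and 117 to 28.6, 24.9 and 25.5 (5.19-fold, quantile -1.66), MASTL (5.31-fold, quantile -1.17) and the spindle checkpoint gene MAD2L1 (-1.79, quantile -0.59). TTK, another checkpoint kinase, changed by -1.38 (quantile -0.11), and the proliferation marker MKI67 by -1.07 (quantile -0.04), and neither passed after quantile normalization. Of 23 kinesin and kinetochore genes, 10 fell and 5 passed with opposite signs (median -1.31, quantile -0.13), with the kinetochore gene CENPK lowest (5.95-fold, quantile -1.54). Of 18 cell cycle brakes listed 6 were measured. Of these 2 fell and 3 passed with opposite signs (median -0.91, quantile 0.27).

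The promoters of these groups carried different letters, which the choice of genes did not use. Promoters from 250 bases before to 50 after the gene start (RefSeq, GRCh38.p14) were found for 10571 of the 14599 genes. They were searched on both strands for E2F-type letters (TTTCCCGC or TTTGGCGC) and for the cell cycle homology region found in mitotic genes (TTTGAA), and also for CRE and AP-1 letters. The E2F letters were in 3.07% of all promoters, in 4.81% of those of genes that fell on both scales and in 1.0% of those of genes that rose. They were in 9 of 15 promoters of the licensing list (60%) and in 0 of 22 of the mitotic list. The TTTGAA letters were in 11.8% of all promoters, 1 of 15 of the licensing list (6.67%), 13 of 22 of the mitotic list (59.1%) and 14 of 20 of the kinesin and kinetochore list (70.0%). Among all genes with E2F letters 44.0% fell on both scales, 37.8% of those with the CRE letters TGACGTCA, 25.7% of those with TTTGAA, 23.6% of those with the AP-1 letters TGACTCA and 28.1% of all with a promoter, so the E2F share was not the only one above that of all promoters. A match describes these windows only, since a short word also occurs by composition, and the median share of G and C was 62.3% in the licensing list, 62.7% in the mitotic list and 63.3% overall.

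Shown for the licensing side are the promoters of MCM6 and DTL, and for the mitotic side those of CDC20 and CCNB2, which were picked after matches and values were seen. Each runs 5′ to 3′ on the gene's strand with the E2F-type and TTTGAA letters in capitals. MCM6 (chr2:135876394-135876693, minus strand) holds TTTGGCGC at bases 99 and 161 of the window, and DTL (chr1:212035498-212035797, plus strand) holds it at base 243, next to the CRE letters TGACGTCA at base 234, which are left in lower case. CDC20 (chr1:43358731-43359030, plus strand) holds TTCAAA, the same word on the other strand, at base 73 and TTTGAA at base 186, and CCNB2 (chr15:59104896-59105195, plus strand) holds TTTGAA at base 222.
MCM6: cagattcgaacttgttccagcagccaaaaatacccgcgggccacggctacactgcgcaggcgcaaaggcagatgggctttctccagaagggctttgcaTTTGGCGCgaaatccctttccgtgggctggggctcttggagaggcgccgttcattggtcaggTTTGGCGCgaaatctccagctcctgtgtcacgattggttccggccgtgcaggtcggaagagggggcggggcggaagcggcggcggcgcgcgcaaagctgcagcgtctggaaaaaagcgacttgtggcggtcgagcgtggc
DTL: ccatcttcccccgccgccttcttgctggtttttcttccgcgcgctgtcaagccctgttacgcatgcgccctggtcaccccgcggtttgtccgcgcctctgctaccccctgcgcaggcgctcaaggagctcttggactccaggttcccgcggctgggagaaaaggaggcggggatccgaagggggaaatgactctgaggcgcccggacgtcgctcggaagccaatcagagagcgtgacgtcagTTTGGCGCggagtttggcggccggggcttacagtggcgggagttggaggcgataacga
CDC20: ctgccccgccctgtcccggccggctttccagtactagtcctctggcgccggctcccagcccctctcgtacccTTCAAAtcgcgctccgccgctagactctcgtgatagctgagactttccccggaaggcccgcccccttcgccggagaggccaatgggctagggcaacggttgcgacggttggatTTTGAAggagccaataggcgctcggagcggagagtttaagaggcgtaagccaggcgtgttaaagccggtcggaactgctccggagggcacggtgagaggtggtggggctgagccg
CCNB2: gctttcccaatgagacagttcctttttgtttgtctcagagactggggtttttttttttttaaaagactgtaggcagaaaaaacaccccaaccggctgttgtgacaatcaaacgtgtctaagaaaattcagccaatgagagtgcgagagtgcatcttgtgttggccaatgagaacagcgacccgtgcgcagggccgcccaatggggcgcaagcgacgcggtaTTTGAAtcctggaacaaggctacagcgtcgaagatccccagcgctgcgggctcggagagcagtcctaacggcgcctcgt

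DTL is in none of the lists, and CDC20 and CCNB2 lie above the medians of the mitotic list on both scales. MCM6 read 762, 694 and 765 in vehicle and 69.7, 77.6 and 79.1 with the combination (-3.29 ± 0.10, adjusted p = 1.5e-12, quantile -2.15). CDC20, which activates the anaphase-promoting complex, read 772.2, 740.2 and 837.6 against 569.4, 621.4 and 601.4, so the groups stood apart by a small step (-0.39, adjusted p = 0.0046) whose sign was opposite after quantile normalization (0.77). CCNB2, the gene of cyclin B2, read 419.1, 351.5 and 389.4 against 264.6, 241.9 and 236.0 (-0.64, quantile 0.64).

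Some DNA repair genes fell in each pathway listed, and differences between pathways were not tested. Base excision and mismatch repair had 11 of 20 lower on both scales (median -1.29, quantile -0.33), and UNG, the glycosylase that removes uracil from DNA, moved furthest among them. UNG read 577, 488 and 564 in vehicle and 38.3, 44.0 and 41.6 with the combination, 13.1-fold lower (-3.71 ± 0.11, adjusted p = 9.8e-13, quantile -2.76). The endonuclease gene APEX1 fell 5.09-fold and the mismatch repair gene PMS2 to a like degree (-2.35, quantile -1.09), while PARP1, a sensor of DNA breaks, fell 3.20-fold as deposited but by 0.44 after quantile normalization (adjusted p = 8.4e-05). Homologous recombination had 13 of 19 lower (median -1.65, quantile -0.78), led by the end-resecting nuclease gene EXO1 from 452, 372 and 442 to 65.4, 63.6 and 62.2 (6.6-fold, quantile -1.61), XRCC2 (6.55-fold) and RAD51AP1 (5.21-fold).

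End joining, which rejoins broken ends without a template, had 6 of 8 lower on both scales (median -1.80, quantile -0.80). XRCC6, the Ku70 subunit that binds broken ends, read 694, 644 and 680 in vehicle and 161, 136 and 142 with the combination (4.61-fold lower, -2.20 ± 0.11, adjusted p = 6.5e-11, quantile -0.94). Its partner XRCC5 fell 3.27-fold (quantile -0.72), TP53BP1, which steers breaks towards end joining, 4.33-fold (quantile -1.19), and its effector RIF1 4.87-fold (quantile -1.04). MGMT, which reverses alkylation of guanine, went from 75.3, 68.6 and 63.9 to 29.2, 32.5 and 27.1 (2.34-fold, quantile -0.65). As deposited, the groups did not overlap for any of these genes, which was so for 76.8% of all genes. Of 5 Fanconi anaemia genes measured, out of 17 listed, 3 fell (median -1.15, quantile -0.21).

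Genes that make ribosomes fell, while genes of the ribosome's own proteins mostly did not hold. Ribosome biogenesis had 21 of 22 lower on both scales (median -2.06, quantile -0.93), with NOP16 from 302, 253 and 273 to 37.2, 32.6 and 34.3 (7.95-fold, adjusted p = 4.8e-12, quantile -2.10) and MRTO4 5.81-fold lower, both factors of the large subunit. Cytosolic ribosomal proteins had 3 of 23 lower on both scales and 7 with opposite signs (median -1.06, quantile 0.10), with RPL32 at -1.06 (quantile -0.42). RPL32 lost its quantile call without the third vehicle array (-0.36) or the second combination array (-0.35). Mitochondrial ribosomal proteins differed from them in their counts, with 24 of 27 lower (median -1.74, quantile -0.60), among them MRPL9, 6.39-fold lower. Nuclear import and export had 25 of 29 lower (median -1.91, quantile -0.71), with the pore gene NUP205 at 7.81-fold and the importin gene IPO4 at 5.95-fold, and splicing factors had 21 of 32 (median -1.53, quantile -0.50), with SNRPD1, a core spliceosome protein, at 9.16-fold. Of 17 tRNA synthetases 13 fell (median -1.46, quantile -0.37), for example VARS1 for valine (4.23-fold).

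Metabolic and proteostasis lists differed in their counts, where 25.5% of all genes fell and 3.99% rose on both scales. Glycolysis had 6 of 8 measured genes lower, out of 22 listed (median -1.56, quantile -0.39), with the hexokinase gene HK2 3.66-fold lower. The respiratory chain had 4 of 11 measured genes lower, out of 36 listed (median -1.22, quantile -0.21). Its median intensity was 243, and the nearest brightness bin had 36.8% lower. Sterol synthesis had 6 of 16 lower and 5 with opposite signs. For its median intensity of 146 the nearest bin had 40.7% lower. Fatty acid genes split, with 6 of 18 lower, including the synthase FASN (4.71-fold, quantile -0.96), and 3 higher, including the acyl-CoA synthetase ACSL1 from 375, 311 and 315 to 544, 587 and 551 (0.75, quantile 1.93) and the desaturase-like FADS3 (0.69, quantile 1.73). Of the heat shock genes HSPH1, a co-chaperone of HSP70, stood out, at 1421, 1257 and 1273 against 134, 135 and 142 (9.60-fold lower, quantile -2.07), within a list of 10 with 5 lower and 1 higher. Of 7 housekeeping genes 2 fell, near the share of all genes, and 2 passed with opposite signs (median -1.16, quantile -0.03). TBP was at -1.84 (quantile -0.57), GAPDH at -1.16 (quantile -0.09) and HPRT1 at -1.33 (quantile -0.03), the last 2 without passing after quantile normalization.

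**Figure D3:**
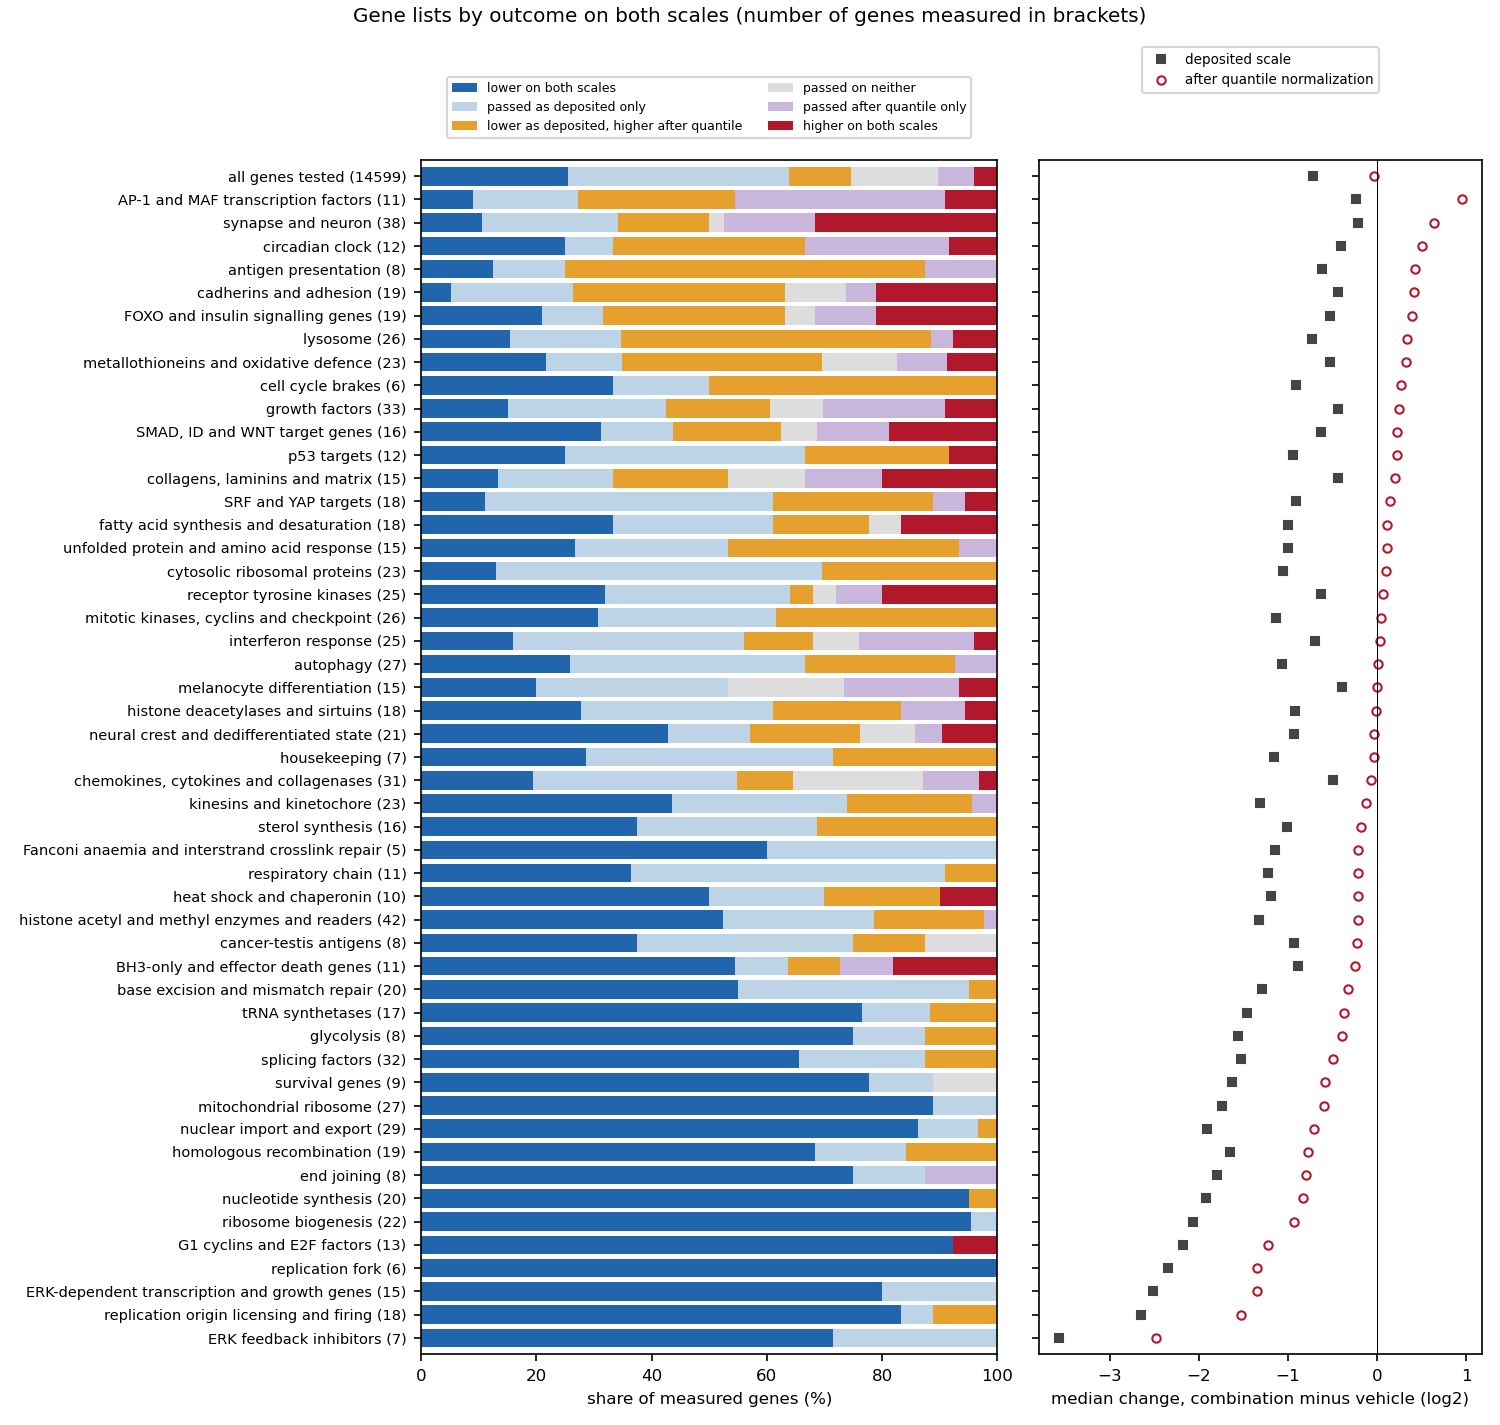
Left, share of the measured genes of each list by outcome on the 2 scales; right, the median change of each list as deposited (squares) and after quantile normalization (circles), in order of the quantile median. ERK feedback inhibitors lie at the foot (-3.57 and -2.48), and AP-1 and MAF factors lie highest among the lists (-0.24 and 0.95).

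Cell death genes moved in both directions. BCL2L11, the gene of the BH3-only killer protein BIM, rose from 173, 143 and 157 to 312, 354 and 288 (2.02-fold, 1.01 ± 0.11, adjusted p = 4.9e-07, quantile 2.18). BMF, another BH3-only gene, rose from 103, 98.3 and 83.3 to 152, 186 and 164 (1.76-fold, quantile 1.88). These were the 2 of 11 BH3-only and effector genes that rose. The pore-forming effectors BAX (3.60-fold, quantile -0.65) and BAK1 (-1.46, quantile -0.69) were among the 6 that fell, as were the BH3-only genes BAD (-1.19, quantile -0.27) and BID (-1.53, quantile -0.59), both named after their values were seen. BAD did not pass after cyclic loess (-0.21), nor after quantile normalization without the first or second vehicle array (-0.25 for both) or without the second (-0.21) or the third (-0.25) combination array. Survival genes fell in 7 of 9 cases (median -1.63, quantile -0.59). MCL1 went from 1285, 1021 and 1130 to 349, 326 and 323 (3.43-fold lower, quantile -0.59), BCL2 fell 3.09-fold (quantile -0.78), the caspase-8 inhibitor gene CFLAR 3.18-fold and the inhibitor of apoptosis BIRC2 3.90-fold. Of 12 p53 target genes 3 fell and 1 rose, near the shares of all genes (25.5% and 3.99%).

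The melanocyte differentiation list held in 4 of 15 cases, with 3 lower and 1 higher (median -0.39, quantile 0.00), where 25.5% of all genes fell. The 3 lower were MITF, MC1R (-1.37, quantile -0.48) and CDK2 (-2.13, quantile -0.85). CDK2 is a cell cycle kinase gene that was also counted with the first gap phase genes. The 1 higher was GPNMB, a melanosomal glycoprotein, which read 37.4, 36.9 and 29.7 in vehicle and 244, 303 and 284 with the combination, 8.0-fold higher (3.00 ± 0.14, adjusted p = 4.1e-11, quantile 3.87). MITF, the lineage's master regulator, fell from 72.7, 67.4 and 64.5 to 34.5, 39.8 and 30.6 (1.96-fold, adjusted p = 2.7e-06, quantile -0.36, adjusted p = 0.005), but at -0.22 it did not pass after cyclic loess. SOX10, which acts upstream of it, read 1045, 874 and 1081 against 449, 471 and 419 (-1.16), with a quantile change of 0.00 that did not pass. EDNRB, an endothelin receptor of the lineage, overlapped between groups at 51.6, 57.8 and 65.9 against 54.4, 62.1 and 56.0 (-0.02, adjusted p = 0.88) and passed only after quantile normalization (0.72). S100B, a lineage marker chosen for its level, fell 3.06-fold from 2916, 2741 and 2953 to 948.3, 866.2 and 1000 (quantile -0.66).

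Among neural crest and dedifferentiation genes 9 of 21 fell and 2 rose, where 25.5% of all genes fell and 3.99% rose. At their median intensity of 153, the nearest brightness bin had 40.7% lower and 3.7% higher. NES, the gene of the intermediate filament nestin, went from 1869, 1653 and 1837 to 283, 274 and 286 (6.35-fold lower, quantile -1.48), while SOX2, a stem cell transcription factor, rose from 77.1, 107 and 95.5 to 208, 235 and 220 (2.39-fold, adjusted p = 5.4e-08, quantile 2.31). Receptor tyrosine kinases had 8 of 25 lower and 5 higher. The brightness bin nearest their median intensity of 106 had 38.1% lower and 3.7% higher. ERBB3, a receptor for neuregulins, fell from 990, 775 and 920 to 142, 158 and 142 (6.06-fold, quantile -1.37), whereas its relative ERBB4 rose from 44.8, 22.8 and 23.9 to 99.2, 107 and 105 (3.57-fold, quantile 2.64), with the first vehicle array above the other 2. MERTK (2.12-fold, quantile 1.89) and FGFR2 (0.86, quantile 1.77) rose and AXL fell (-1.41, quantile -0.37). Of 33 genes in the growth factor list, which also held SPRY3, 5 fell and 3 rose. The activin antagonist FST was 11.5-fold lower and PDGFA, a ligand of PDGF receptors, 7.10-fold lower.

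Neuronal and synaptic genes held the largest number of rises of any list, 12 of 38 (against 3.99% of all genes), with 4 lower. The list median was -0.22 as deposited and 0.64 after quantile normalization (0.35 after medians were subtracted, 0.65 after cyclic loess). CALB2, which encodes the calcium-binding protein calretinin, read 76.7, 79.8 and 76.6 in vehicle and 419, 399 and 392 with the combination, 5.19-fold higher (2.37 ± 0.10, adjusted p = 1.1e-11, quantile 3.33). SYN1, a synaptic vesicle phosphoprotein, rose from 89.9, 83.6 and 79.2 to 248, 306 and 285 (3.31-fold, quantile 2.75). SYT4, a vesicle protein of the synaptotagmin family, rose from 29.8, 17.4 and 13.9 to 67.2, 88.7 and 68.2 (3.84-fold), and the adhesion gene CNTN1 2.47-fold. Among the 4 that fell was REST, a repressor of neuronal genes that works with histone deacetylases, at -2.34 (quantile -1.10), named after its value was seen. The others that fell were SCG2 (-1.65, quantile -0.82), STX1A (-1.60, quantile -0.57) and VGF (-1.60, quantile -0.30), also named after their values were seen.

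Adhesion genes rose in 4 of 19 cases, with 1 lower and 7 of opposite signs. ALCAM, an adhesion molecule of the immunoglobulin family, went from 55.5, 51.8 and 54.0 to 261, 293 and 271 (5.11-fold, adjusted p = 2.7e-11, quantile 3.29), and the protocadherin gene PCDH10 rose 2.71-fold. FOXO and insulin signalling genes had 4 of 19 higher and 4 lower. IGFBP5, which binds insulin-like growth factors, rose from 174, 165 and 192 to 678, 725 and 755 (4.06-fold, adjusted p = 1.4e-10, quantile 3.10), SESN3, a FOXO target that restrains mTORC1, 3.06-fold, TXNIP, which restrains glucose uptake, 1.75-fold and the insulin receptor substrate IRS2 1.49-fold. Lysosomal genes mostly changed sign with the scale, 14 of 26, with 4 lower and 2 higher, of which the protease gene CTSV rose from 103, 95.2 and 112 to 292, 313 and 337 (3.04-fold, quantile 2.66).

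The remaining genes among the 12 largest rises had diverse functions. FYB1, an adaptor of immune cell receptors, went from 8.81, 10.4 and 14.2 to 113, 94.3 and 91.0 (3.18 ± 0.15, adjusted p = 3.8e-11, quantile 3.83). Its vehicle values lay between or near the median intensities of the 2 dimmest of the 10 brightness bins (8.2 and 17.3), so the size of its rise depends on a level not shown to be above background. SLPI, a secreted protease inhibitor, read 59.1, 31.7 and 31.2 against 303, 264 and 290 (7.34-fold), with the first vehicle array above the other 2. CD24, a surface glycoprotein, was the brightest of the 12 with the combination, at 205, 197 and 152 against 1042, 1062 and 948 (5.55-fold, quantile 3.49). The others were EFNB2, the gene of ephrin-B2 (6.41-fold), SUSD4 (6.17-fold), ENPP5 (5.99-fold), the chemokine gene CXCL14 (5.67-fold), the kinase gene STK32A (5.02-fold) and the non-coding RNA LINC00624 (4.97-fold). For all 12 the 3 combination arrays lay above the 3 vehicle arrays on both scales, which the rule for naming them required. GNE, an enzyme of sialic acid synthesis and another of the 12 largest falls, went from 1579, 1517 and 1413 to 99.3, 105 and 117 (14.1-fold).

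**Figure D4:**
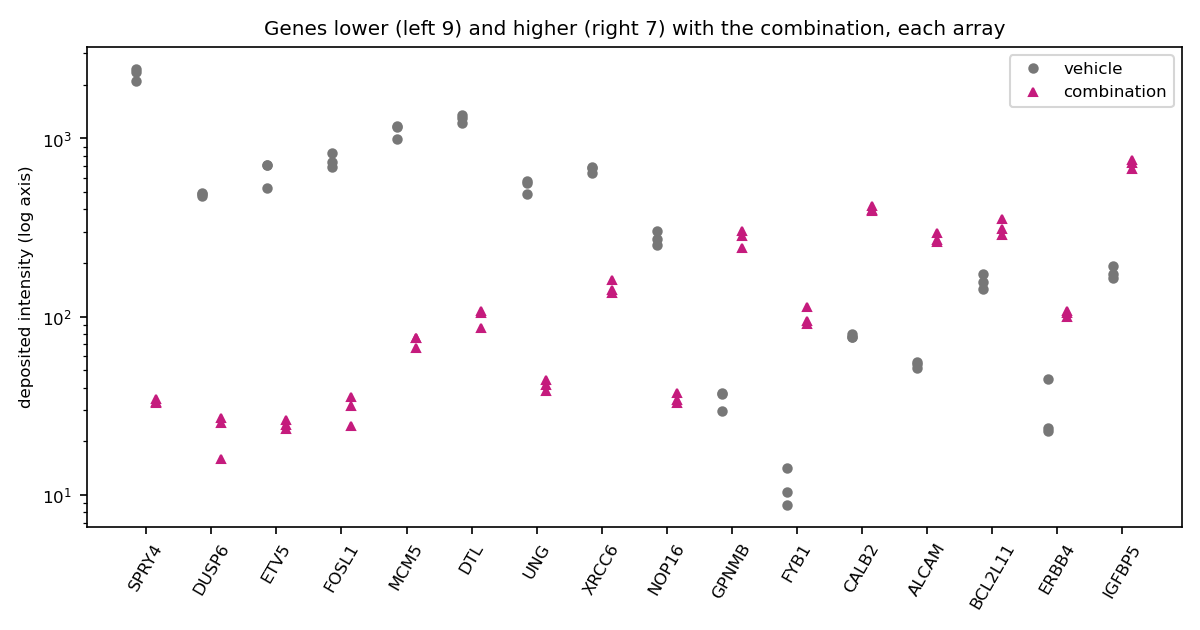
Deposited intensity (log axis) of 16 genes in each of the 3 vehicle arrays (circles) and the 3 combination arrays (triangles). SPRY4 shows the widest gap, from 2098 or more to 34.4 or less. The groups are apart for all 16 genes, as they are for 76.8% of all genes on this scale.

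Chromatin lists differed in their counts. Of 42 histone acetylation, methylation and reader genes 22 fell and 0 rose on both scales (median -1.33, quantile -0.22), where the eighth of the 10 brightness bins, near the list's own median intensity of 188, had 40.7% lower. The 22 included the Polycomb-associated gene PHF19 (588, 490 and 575 against 59.6, 61.1 and 52.0, 9.56-fold), UHRF1, which recruits DNA methylation to new DNA (6.01-fold), and the histone methyltransferase gene SUV39H2 (-2.48, quantile -1.72). Of 18 deacetylase and sirtuin genes 5 fell, 1 rose and 4 passed with opposite signs (median -0.92, quantile -0.01). Among the class I genes, HDAC1 read 631, 535 and 631 against 321, 354 and 344 (-0.82) and HDAC3 445, 382 and 439 against 235, 247 and 245 (-0.80), and both passed as higher after quantile normalization (0.45 and 0.49). HDAC2 fell on both scales (-1.19, quantile -0.20), though at -0.14 it did not pass after cyclic loess, nor after quantile normalization without the first (-0.18) or second (-0.20) vehicle array or the third combination array (-0.16). HDAC8, also of class I and named after its value was seen, changed by -0.99 (quantile 0.00) and passed on the deposited scale only. HDAC9, of another class, rose from 63.2, 45.4 and 44.2 to 65.3, 75.6 and 67.6 (0.47, adjusted p = 0.0045, quantile 1.25).

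Over all genes 25.5% fell and 3.99% rose on both scales, and the secreted, interferon and stress lists are given beside that share. Chemokine, cytokine and collagenase genes had 6 of 31 lower and 1 higher, with the membrane metalloprotease gene MMP16 7.54-fold lower and the collagenase gene MMP13 higher at dim levels (12.8, 11.7 and 6.16 against 13.7, 17.7 and 13.1, 0.60), a deposited call that was lost without the third vehicle array (0.27) or the second combination array (0.46). Of 25 interferon response genes 4 fell and 1 rose, IFIT1, from 21.4, 20.2 and 23.1 to 47.3, 67.9 and 59.0 (2.67-fold, quantile 2.01). Of 23 metallothionein and oxidative defence genes 5 fell, with MT2A at -2.16 (quantile -0.95), and 2 rose, with the haem oxygenase gene HMOX1 at 1.45-fold. CCN2, a target of YAP, rose 2.21-fold (quantile 2.14) as the 1 rise among 18 SRF and YAP targets. SMAD, ID and WNT target genes had 5 of 16 lower, 3 higher and 3 of opposite signs, and circadian clock genes 3 of 12 lower, 1 higher and 4 of opposite signs. The WNT-related genes LEF1 (5.26-fold lower, quantile -1.38) and NKD1 (1.76-fold higher, quantile 1.94) went opposite ways, as did the clock genes NPAS2 (7.01-fold lower, quantile -1.63) and HLF (2.15-fold higher, quantile 2.23).

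The genes with the largest quantile rises among those of opposite sign were bright and barely moved as deposited. Both traits follow largely from how they were picked. Of the 10 brightness bins, the dimmest held 0 genes of opposite sign and the brightest 410. ELOVL4, an enzyme of very long fatty acids, read 366, 379 and 366 in vehicle and 304, 324 and 333 with the combination (-0.21, adjusted p = 0.046, quantile 1.05). TST (-0.22, quantile 1.04), BLVRB, a biliverdin reductase gene (-0.24, quantile 1.02), LPP-AS2 (-0.26, quantile 1.01) and TBX20 (-0.26, quantile 0.99) were alike in size. The deposited call of ELOVL4 was lost without any 1 of the 6 arrays (-0.17 to -0.24), that of TST without any but the first vehicle array and that of TBX20 without the first (-0.23) or the third (-0.25) combination array. BLVRB lost it without any but the first vehicle and second combination arrays, and LPP-AS2 without the first or the third vehicle or the first combination array. These directions rest on the scaling chosen and are given as values only.

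The combination was last set against each treatment alone, to see which of its changes went beyond those of MAPKi or HDACi. These comparisons share the combination arrays with each other and with the comparison above, so their values are only set side by side. Against MAPKi, 8.68% of genes were higher and 40.6% lower as deposited (19.6% and 24% after quantile normalization), and against HDACi 0.644% were higher and 72.6% lower (10.5% and 12.5%).

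Of the 3730 genes that fell, 652 (17.5%) also passed as below both single treatments on both scales, and of the 582 that rose, 32 (5.5%) passed as above both. Among all 3730 genes that fell, 2368 were below MAPKi and 1233 below HDACi on both scales. The 12 largest falls were all below HDACi on both scales. Against MAPKi, 3 of these 12 were below it, 2 were above it and 7 did not pass with the same sign on both scales. These counts rest on shared arrays and are given as a description, and the genes named next as beyond both are from the 652. UNG read 123, 100 and 104 with MAPKi and 116, 118 and 124 with HDACi, against 38.3 to 44.0 with the combination. The difference was -1.40 ± 0.11 from MAPKi (adjusted p = 7.8e-08, quantile -1.24) and -1.53 ± 0.11 from HDACi (adjusted p = 2e-08, quantile -1.02). HSPH1 read 501, 510 and 459 and 488, 525 and 517 with MAPKi and HDACi, from which the combination differed by -1.84 and -1.90 (quantile -1.40 and -1.01). MCM5 (-0.92 from MAPKi, -1.64 from HDACi), FOSL1 (-0.92, -2.94) and E2F3 (-1.35, -1.49) passed against both on both scales. XRCC6 was below MAPKi on both scales (-1.17, quantile -0.72) and below HDACi as deposited (-1.05) but not after quantile normalization (-0.17, adjusted p = 0.28).

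Others stood between the single treatments or near one of them. TREM1, a receptor of myeloid cells, read 404, 420 and 429 with HDACi against 40.6, 35.1 and 36.8 in vehicle, but 25.6, 34.4 and 20.3 with the combination and 27.2, 27.3 and 21.7 with MAPKi. The combination differed from HDACi by -4.00 ± 0.16 (adjusted p = 5.3e-11, quantile -3.53), and its difference from MAPKi was 0.05 ± 0.16 (adjusted p = 0.82). The chemokine gene CXCL8 had the same order at dim levels, 59.6, 46.9 and 55.7 with HDACi against 7.05, 10.4 and 9.04 with the combination (-2.62 ± 0.16, adjusted p = 6.3e-09). NPPC and ETV4 were further from vehicle with MAPKi than with the combination. NPPC read 91.1, 103 and 97.8 with MAPKi (adjusted p = 8.3e-07, quantile difference 1.58), and ETV4 differed by 0.42 (quantile 0.60). BMF also rose less than with MAPKi, where it read 314, 331 and 324 (difference -0.95, adjusted p = 3.9e-06, quantile -0.48), and MKI67 was higher than with MAPKi (0.52, quantile 0.84).

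Genes that rose also differed in where they stood. CD24 read 161, 174 and 145 with MAPKi and 1100, 1036 and 1047 with HDACi, so the combination lay 2.67 above MAPKi, and its difference from HDACi was -0.06 as deposited (adjusted p = 0.65) and 0.61 after quantile normalization. SYN1 was above MAPKi (2.18, quantile 2.68) and below HDACi as deposited (-0.61) but above it after quantile normalization (0.28). GPNMB, by contrast, was above HDACi (2.39, quantile 3.23), with a difference of -0.32 ± 0.14 from MAPKi (adjusted p = 0.077). Of the 12 largest rises 4 were above HDACi on both scales and 8 above MAPKi. Among all 582 genes that rose, 68 were above HDACi and 433 above MAPKi on both scales. SOX2 and IFIT1 were among the 32 genes above both. SOX2 read 69.5, 72.0 and 77.9 with MAPKi and 156, 157 and 154 with HDACi (differences of 1.59 and 0.50, adjusted p = 4.3e-08 and 0.0013), and IFIT1 differed from them by 0.84 and 0.40. MITF was below MAPKi on both scales (-1.09, quantile -0.95) and below HDACi as deposited (-0.67), but not after quantile normalization (-0.20, adjusted p = 0.14).

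**Figure D5:**
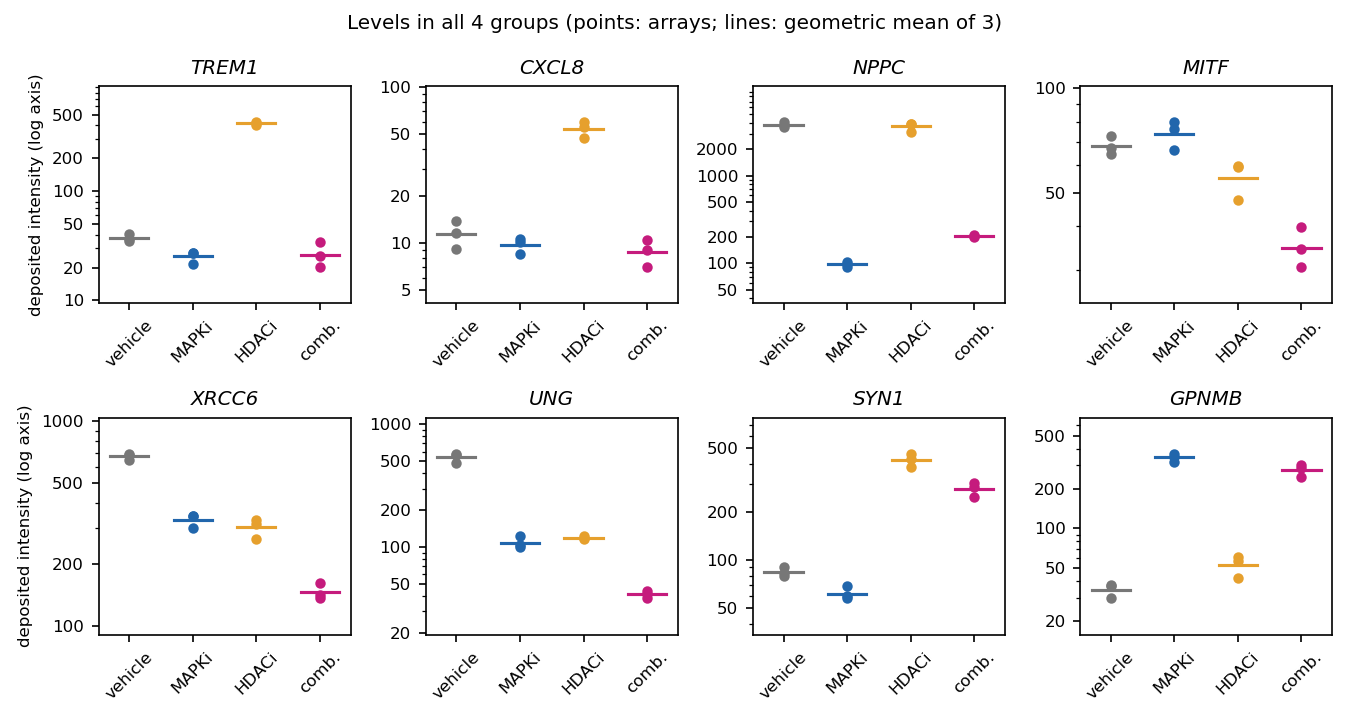
Deposited intensity (log axis) of 8 genes in all 4 groups, with a point for each of 3 arrays and a line at their geometric mean. TREM1 and CXCL8 are high with HDACi alone, GPNMB is high in both MAPKi-treated groups and UNG is lowest with the combination at 38.3 to 44.0.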

How the data were processed

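The values were single-colour array intensities, deposited by the authors on a linear scale; per the submitters' processing notes they were made by RMA in Transcriptome Analysis Console, with versions not given. No source used here gives the genome build, annotation or scaling between arrays, and rows of the added RNA spike-in were not identified. Whether the RMA run included quantile normalization across these arrays was not stated. The deposited arrays did not have the same spread of values, which quantile normalization of these values would force. Medians ran from 33.28 (combination array 3) to 57.59 (vehicle array 1), and 95th percentiles from 323 to 838.7 in the same arrays. The reason was not tested. Of 29592 rows, 14783 had 1 gene symbol in the platform annotation, 0 had several and 14809 had none; where a gene had several rows (169 genes) the brightest was used. On the log2 of the deposited intensities, and again after quantile normalization, limma 3.58.1 (R 4.3.3) was fitted to all 12 arrays with a mean per group (8 residual degrees of freedom) and Benjamini-Hochberg adjustment over 14599 genes. Standard errors are from the deposited fit, and their precision is limited by there being 3 arrays a group.

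Genes were named by a rule: the 12 largest rises and falls that passed and did not overlap on both scales, up to 4 held and 2 other members of each list, the 6 largest quantile rises among genes of opposite sign, and a set of fixed genes. BAD, BID, CCND2, CCNB2, CDC20, HDAC8, REST, S100B, SCG2, SPRY3, STX1A and VGF fall outside it. The members, lists and tests were chosen with earlier results of these data known. The 58 lists held 1533 memberships, of which 927 had a named row, so each list count describes only the part measured. Alternatives were other scalings, a filter on dim genes, another variance model, the mean of probe sets, the compared arrays alone, a replicate block and leaving out each array. On simulated arrays of 14599 genes for this comparison, the fit called 50% of genes changed by 0.5, 98% of those changed by 1 and 6 of 14399 unchanged genes. Those arrays were drawn independently around the vehicle means, with few genes changed and no shift shared by all genes. In the data the median deposited change was -0.72 and 78.6% of genes were called, so the simulation gives no error rate for these calls.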

Additional observations from a re-analysis of the deposited data

Results flagged for a closer look

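The 14809 rows with no gene name in the annotation used here entered no comparison, and 576 of them were higher with the combination than in vehicle on both scales (3.89%). Another 2043 were lower on both scales (13.8%) and 803 passed with opposite signs (5.42%). They could not be tied to a gene, and what they measure was not tested.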

How the results depend on the processing

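Scaling moved the counts most. For the combination against vehicle as deposited, genes higher numbered 3301 with array medians subtracted, 3365 with cyclic loess, 3073 with quantile normalization and 339 without the dimmest 40% of genes, and genes lower numbered 6341, 3421 and 3737 under the 3 scalings. Against MAPKi the deposited counts became 1945, 3065 and 2859 higher, and 2852 (loess) and 3507 (quantile) lower. Against HDACi they became 1787, 1298 and 1531 higher (50 without the dimmest 40%) and 4427, 1787 and 1821 lower. With medians subtracted in place of quantile normalization, genes lower numbered 6341 against vehicle and 4427 against HDACi. Genes higher on both scales fell to 339 without the dimmest 40%. Of the 582 genes higher and 3730 lower on both scales, 582 and 3475 kept their call with medians subtracted, and 579 and 3385 with cyclic loess.

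Leaving out 1 array gave 529 to 636 genes higher and 10115 to 11241 lower as deposited, 2747 to 2921 and 3330 to 3558 after quantile normalization, and on both scales 497 to 589 higher, 3325 to 3547 lower and 1231 to 1472 of opposite sign. No pairing by array number was assumed. Residuals of same-numbered vehicle and combination arrays correlated at -0.0575, 0.0469 and 0.0516, and those of other pairs at -0.11 to 0.069. The best match among all other groups shared the number for 7 of 12 arrays, so these values do not settle whether the numbers mark pairs. A replicate block gave 641 higher and 10913 lower as deposited and 3066 and 3742 after quantile normalization.

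For the genes below the estimate changed sign from the deposited scale, whether or not it passed on either. EDNRB and PMEL did not pass as deposited, and DUSP2 and SOX10 did not pass after quantile normalization. With cyclic loess and quantile normalization BLVRB was 1.03 and 1.02, CCNB2 0.64 and 0.64, CDC20 0.85 and 0.77, CDC7 0.41 and 0.42, DBF4 0.29 and 0.30, DUSP2 0.26 and 0.21, EDNRB 0.77 and 0.72, ELOVL4 1.06 and 1.05, HDAC1 0.45 and 0.45, HDAC3 0.48 and 0.49, JUN 1.03 and 1.02, LPP-AS2 1.01 and 1.01, SOX10 0.07 and 0.00, TBX20 1.01 and 0.99, TAPBP 0.37 and 0.38, and TST 1.05 and 1.04. PMEL, whose level alone is described, was 0.62 and 0.51. MKI67 was 0.09, HDAC8 0.08 and TREM1 0.24 with cyclic loess. With array medians subtracted BLVRB was 0.33, CDC20 0.18, CXCL8 0.18, EDNRB 0.55, ELOVL4 0.36, JUN 0.32, LPP-AS2 0.31, MLANA 0.06, PMEL 0.31, TBX20 0.31, TREM1 0.05 and TST 0.35. On that scaling CCNB2 was -0.07, CDC7 -0.29, DBF4 -0.42, DUSP2 -0.22, HDAC1 -0.25, HDAC3 -0.23 and TAPBP -0.33, opposite in sign to their quantile estimates. SOX10 was -0.59, against a quantile estimate of 0.00. The cause was not tested.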

Other observations

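Autophagy genes were close to the whole, with 7 of 27 lower on both scales, 0 higher and 7 of opposite signs (median -1.07, quantile 0.01). ATG16L1, which helps to attach lipid to the autophagosome membrane, moved furthest among them, from 286.5, 241.7 and 266.9 in vehicle to 42.96, 43.88 and 37.80 with the combination (-2.67, quantile -1.74). Of 8 antigen presentation genes 1 fell and 5 passed with opposite signs (median -0.62, quantile 0.43), for example TAPBP, which helps to load peptides onto MHC class I molecules, at -0.90 (quantile 0.38). Of 8 cancer-testis genes 3 fell and 0 rose (median -0.93, quantile -0.23). Unfolded protein response genes had 4 of 15 lower, 0 higher and 6 of opposite signs (median -1.0, quantile 0.11).

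Of 1020 microRNA genes on the array 126 were lower (12.4%) and 23 higher (2.25%) on both scales. Their median intensity was 15.6, against 83.2 for protein-coding genes, so most of them were dim.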
